A study of Mus musculus with 12 samples.

Results

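The genes described here are *Polrmt*, *Tfam*, *Tfb1m*, *Tfb2m*, *Polg*, *Ssbp1*, *Lrpprc*, *Slirp*, *Pnpt1* and *Supv3l1*, which are nuclear genes for proteins that transcribe or copy the mitochondrial genome or that stabilise or degrade its RNA. They were chosen by name with no threshold on their values, although earlier results of these data were known, and all 10 were found among the 55367 gene symbols of the files. RNA was measured in 12 samples of single muscle fibers isolated with collagenase from the extensor digitorum longus (EDL), a fast hindlimb muscle of the mouse. Of these, 4 samples came from young mice (3 to 4 months) and 8 from aged mice (26 to 28 months). The fibers of aged mice were stained with Fluo-4, a dye that fluoresces with calcium, and parted under a fluorescence stereomicroscope into 4 Fluo-4 normal and 4 Fluo-4 abnormal samples, the abnormal fibers being those with aberrant, brighter staining. The methods name C57BL/6 J as the strain, the study describes the aberrant fibers in aged males, and no genotype or treatment separated the groups. Mice of this strain were bought from the Jackson Laboratory, whereas aged mice came from the National Center for Geriatrics and Gerontology. If the young mice were the bought ones, age and source cannot be told apart. Neither the number of fibers in a sample nor the mouse it came from is given in the sources used here, so the p-values measure only the spread between these samples, which may be technical.

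The mitochondrial genome is a small circle whose RNA is copied from both strands as long precursors. POLRMT is the RNA polymerase, TFAM packs the DNA and bends it at the promoter, and TFB2M opens the strands, whereas its relative TFB1M methylates the small ribosomal RNA. LRPPRC and SLIRP form a pair that holds mitochondrial mRNAs stable, and PNPT1 with the helicase SUPV3L1 degrades RNA in the matrix. POLG is the catalytic subunit of the mitochondrial DNA polymerase and SSBP1 coats single-stranded DNA during replication. Inherited defects in several of these proteins cause muscle disease. Per the study, fast muscle holds fewer mitochondria than slow muscle.

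Values were in TPM, a unit in which transcript levels are corrected for length and scaled to a sum of 1000000 in each sample, so that depth is unknown. Myofiber genes made up 146604 to 196223 TPM per sample over a list of 12 fiber markers. All 4 adipocyte markers were at 0 in all 12 samples, and the 5 satellite cell markers summed to at most 3.16 TPM. Immune markers summed to 1.80 to 3.06 TPM in the young, 5.68 to 15.5 TPM in the Fluo-4 normal and 9.32 to 16.2 TPM in the Fluo-4 abnormal samples, with 5 of 7 genes above 0 in the young and normal groups and 7 of 7 in the abnormal group. Of the 5 erythroid markers, the sum was 33.1 to 121 TPM, 119 to 482 TPM and 44.4 to 236 TPM in the same order. The 5 Schwann cell markers summed to 0.773 to 1.81 TPM, 1.42 to 6.60 TPM and 3.63 to 7.98 TPM in that order. The 6 fibroblast markers summed to 19.4 to 38.0 TPM, 25.3 to 82.4 TPM and 13.6 to 63.8 TPM, the 6 endothelial markers to at most 14.05 TPM and the 5 smooth muscle markers to at most 66.7 TPM, the latter in a young sample. In the fit described below, 2 Schwann cell markers and 2 of 5 tested immune markers were called higher in abnormal than in young fibers, beside 8.5% of all genes. Of the immune markers, 1 was also called higher in abnormal than in normal fibers (9.35% of all genes) and 1 in normal than in young fibers (1.15%). Of the 12 fiber markers, 2 were called higher and 1 lower in abnormal against normal fibers. The share of *Myh4*, the myosin of the fastest fibers, among the myosin heavy chain genes was 96.9% to 98.6% in the young, 93.7% to 99.2% in the normal and 98.9% to 99.7% in the abnormal samples. The part that these differences play in the values below was not tested.

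The 10 genes spanned a wide range of levels. Over all 12 samples the mean level was 99.4 TPM for *Slirp*, 50.9 TPM for *Ssbp1*, 34.4 TPM for *Tfb2m*, 27.3 TPM for *Tfam* and 20.5 TPM for *Lrpprc*. The remaining means were 12.3 TPM for *Polrmt*, 8.68 TPM for *Pnpt1*, 7.08 TPM for *Polg*, 6.84 TPM for *Tfb1m* and 6.58 TPM for *Supv3l1*. The lowest *Slirp* value, 81.0 TPM, lay above the highest *Ssbp1* value, 59.7 TPM, and *Lrpprc* (lowest 15.4 TPM) lay above *Polrmt* (10.5 to 13.8 TPM), which lay above *Pnpt1* (highest 10.2 TPM). Neighbours from *Ssbp1* to *Lrpprc* overlapped in range, as did neighbours from *Pnpt1* to *Supv3l1*. Within samples, *Ssbp1* was nonetheless above *Tfb2m*, and *Pnpt1* above *Polg*, in all 12, and *Tfb2m* above *Tfam* and *Tfam* above *Lrpprc* in 11 of 12. *Polg* was above *Tfb1m*, and *Tfb1m* above *Supv3l1*, in only 6 of 12. The highest value was 1.28 times the lowest for *Supv3l1* and 2.02 times for *Tfb1m*, with the other genes in between.

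**Figure D1:**
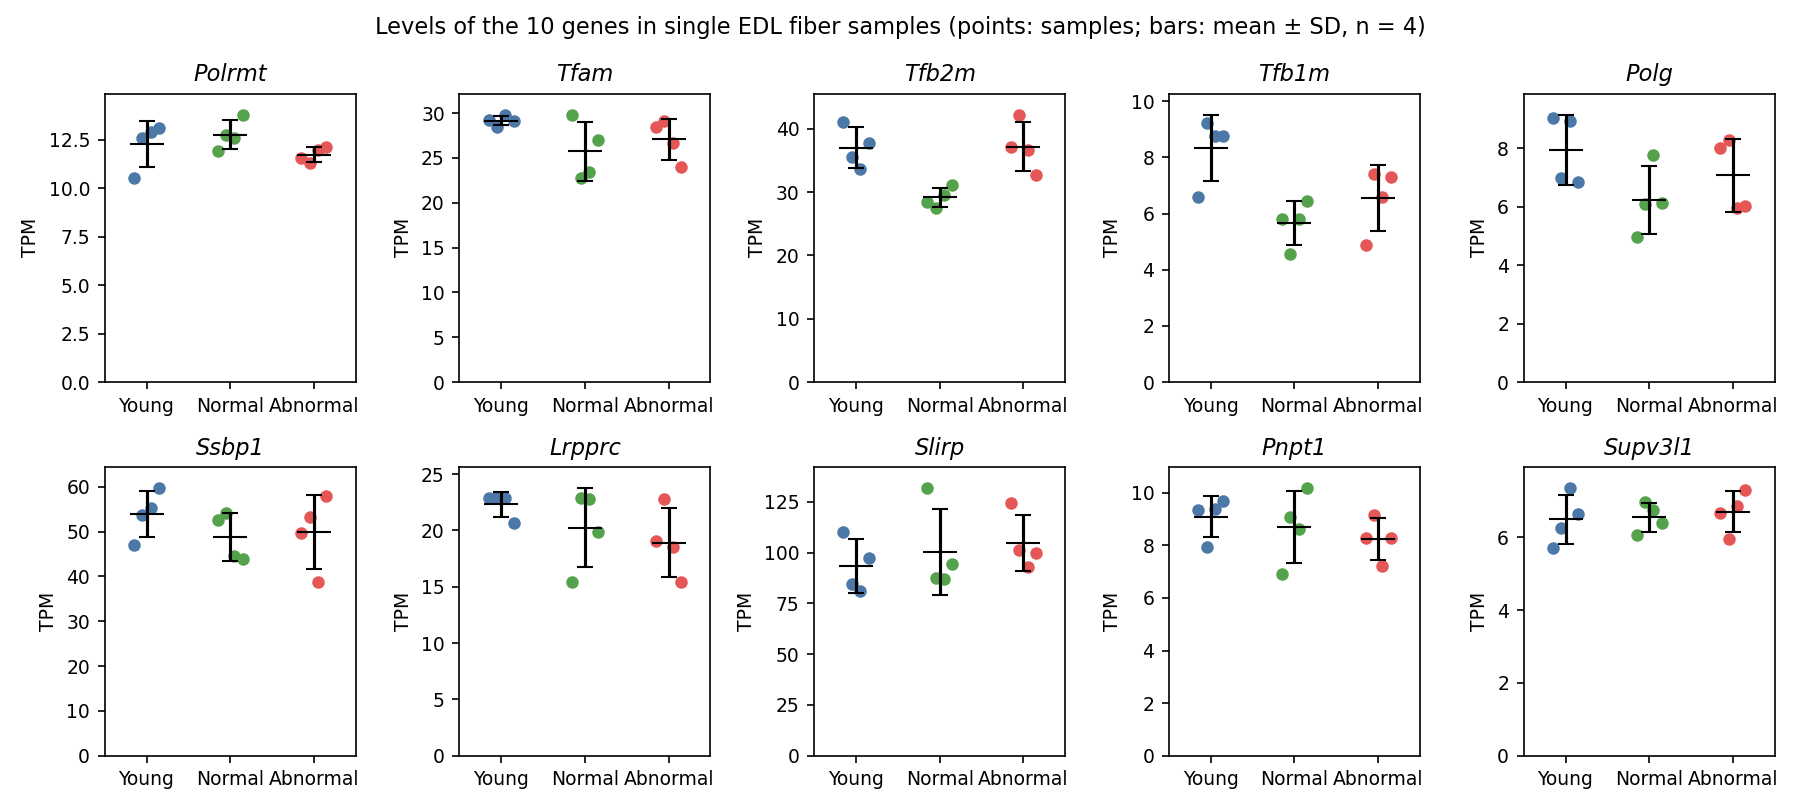
Levels of the 10 genes in TPM (y axis, from 0) in the young, Fluo-4 normal and Fluo-4 abnormal groups (x axis), with each sample as a point and the mean ± SD (n = 4) as bars. In *Tfb2m* the 4 normal samples (27.5 to 31.0 TPM) lie below all others, and in the other 9 genes the abnormal and normal samples overlap.

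Whether the nuclear genes that run mitochondrial gene expression differ in the aged fibers with abnormal calcium staining was examined by limma on log2(TPM + 1), fitted over the 14427 protein-coding and mitochondrially-encoded genes that reached 0.02 TPM in the mean of a group, with Benjamini-Hochberg adjustment over all of them. Changes on this scale understate those of low genes. Between Fluo-4 abnormal and Fluo-4 normal fibers, 1 of the 10 genes, *Tfb2m*, passed an adjusted p of 0.05 and was higher. This is beside 9.35% of all genes called, 7.36% called higher and 1.99% called lower. The share of all genes called was 4.61% without abnormal sample 2, where *Tfb2m* was not called, and 3.92% with only the groups compared in the fit. At an unadjusted p under 0.05 it was again *Tfb2m* alone, beside 25.6% of all genes, and *Tfb2m* was also the only 1 whose groups did not overlap, beside 14% of all genes. With a filter of 5 TPM in the mean of a group, 6348 genes remained, all 10 among them. Of these genes 26.9% were called, and *Tfb2m* was again the only 1 of the 10. The counts among the 10 genes were thus near or below the shares of all genes, and below the share with this filter. Of the 10 changes, 7 were positive and the median was 0.05 on the log2 scale, against 0.10 over all genes. Over the 6348 genes with the filter of 5 TPM the median was 0.20.

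The transcription initiation factor *Tfb2m* was measured at 37.1, 42.2, 36.6 and 32.7 TPM in Fluo-4 abnormal samples 1 to 4. In Fluo-4 normal samples 1 to 4 it was at 28.5, 27.5, 29.6 and 31.0 TPM, and in the young samples at 41.1, 35.5, 33.7 and 37.8 TPM. Every normal sample was thus below every abnormal and every young sample, and the abnormal and young samples overlapped. The change on the log2 scale from normal to abnormal fibers was 0.34 (SE 0.089, 95% interval 0.14 to 0.53, limma adjusted p = 0.032). Between abnormal and young fibers it was 0.00 (interval -0.19 to 0.19, limma adjusted p = 1.0), and between normal and young fibers -0.33 (interval -0.52 to -0.14, limma adjusted p = 0.097, unadjusted 0.0024).

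The call of *Tfb2m* was close to the threshold. With same-numbered abnormal and normal samples paired as a replicate block, the change was 0.34 with an adjusted p of 0.10 in limma. With trimmed-mean scaling factors the change was 0.12 (limma adjusted p = 0.60), and with the mitochondrially-encoded genes left out of the scaling it was 0.28 (limma adjusted p = 0.087). The call was lost without abnormal sample 1 (limma adjusted p = 0.052), 2 (0.098) or 3 (0.062) and without normal sample 1 (0.064) or 2 (0.080), and kept without abnormal sample 4 or normal sample 3 or 4. With the *Myh4* share as a covariate the change was 0.37 (limma adjusted p = 0.10).

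**Figure D2:**
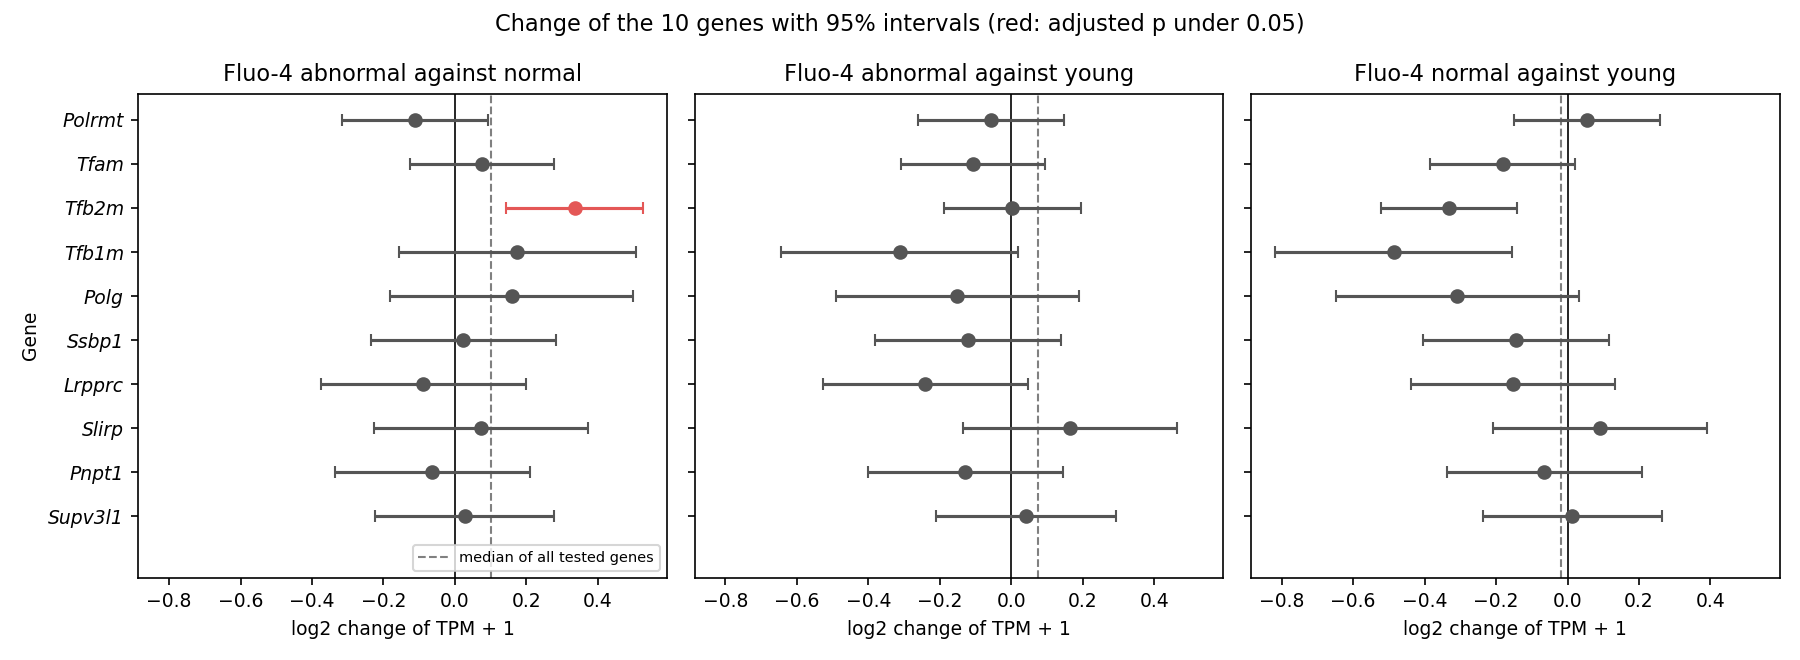
Log2 change of TPM + 1 (x axis) of each of the 10 genes (y axis) in the 3 comparisons, with 95% intervals from limma and, dashed, the median change of all 14427 genes. *Tfb2m* between abnormal and normal fibers (0.34, red) is the 1 change with an adjusted p under 0.05.

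Part of the *Tfb2m* signal cannot be assigned with certainty. The gene lies on chromosome 1 (GRCm39 chr1:179355610-179374548, minus strand), and bases 791 to 2956 of its 2956-base transcript recur as a spliced copy on chromosome 12 (chr12:48600962-48603130) at 99.6% identity over 2169 aligned bases. The copy is annotated as the transcribed pseudogene *Gm1818*. It holds 1041 of the 1188 coding bases (87.6%), spans all 7 exon junctions and differs from the gene by 1 base in the coding part. A stretch of 120 coding bases is shown to make plain how little sequence separates them. It runs over the junction of 2 exons (chr1:179373387-179373494 and chr1:179372540-179372551, minus strand) and corresponds to chr12:48602956-48603075 (minus strand) in the copy. The single capital letter marks the base that differs, and the last 12 bases lie in the next exon.
Tfb2m: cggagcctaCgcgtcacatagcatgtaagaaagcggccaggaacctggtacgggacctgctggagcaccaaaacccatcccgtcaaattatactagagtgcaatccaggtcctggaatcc
Gm1818: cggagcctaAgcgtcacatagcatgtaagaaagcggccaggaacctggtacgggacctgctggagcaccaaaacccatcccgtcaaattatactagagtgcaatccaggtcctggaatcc

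*Gm1818* itself was listed at 21.6, 20.6, 21.5 and 17.4 TPM in the abnormal samples, at 15.9, 20.2, 20.1 and 19.1 TPM in the normal samples and at 18.7, 19.3, 19.0 and 21.5 TPM in the young samples. The groups overlapped. The sum of gene and copy, which depends less on how shared reads were split, was 57.4 ± 5.3 TPM in abnormal, 48.0 ± 2.6 TPM in normal and 56.6 ± 3.5 TPM in young fibers (SD, n = 4). The highest normal sum, 50.16 TPM, lay just under the lowest abnormal sum, 50.18 TPM, and the log2 change of the sum was 0.25 (limma adjusted p = 0.064). *Tfb2m* also shares 531 exonic bases with *Cnst*, which runs on the opposite strand, and the library kit keeps no record of the strand. *Cnst* was measured at 21.1 ± 1.9 TPM in abnormal, 14.6 ± 2.8 TPM in normal and 14.8 ± 1.0 TPM in young fibers (SD, n = 4), and its part in the *Tfb2m* values was not tested.

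**Figure D3:**
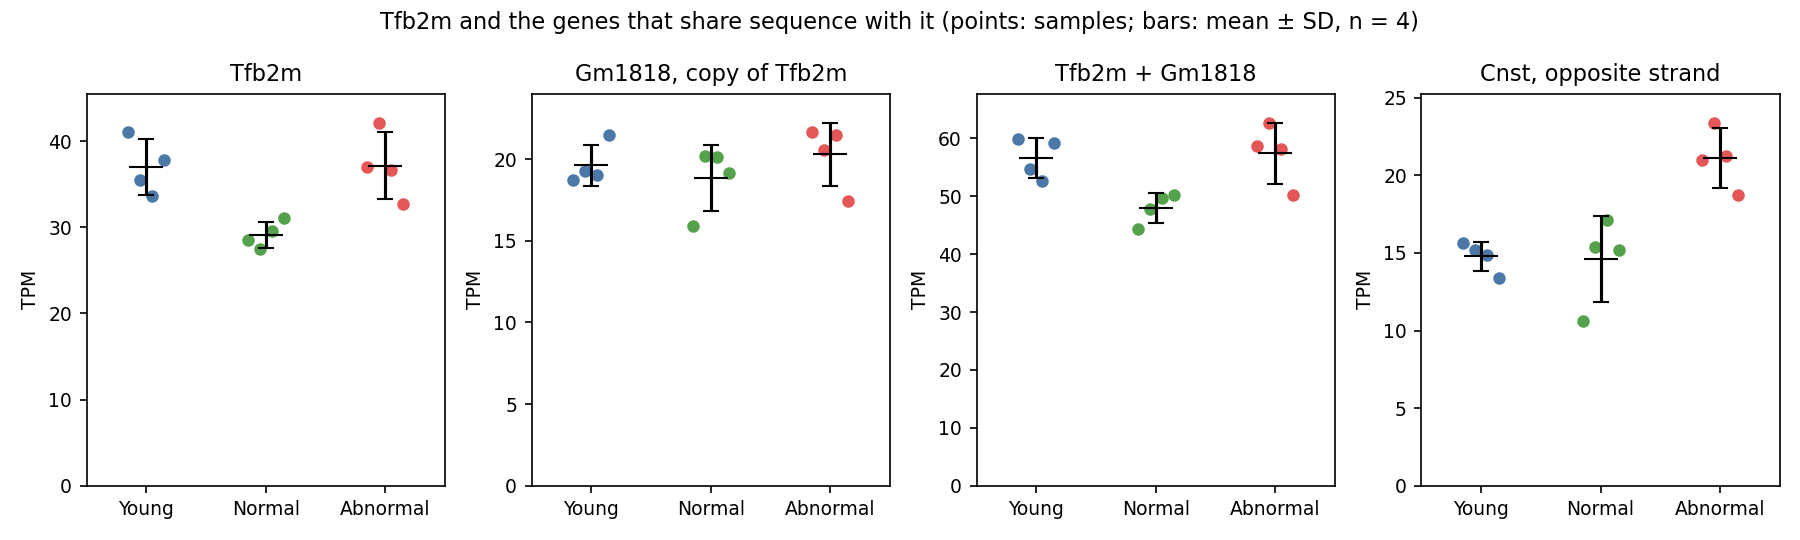
Levels in TPM (y axis, from 0) of *Tfb2m*, of its copy *Gm1818*, of their sum and of *Cnst* on the opposite strand in the 3 groups (x axis), with samples as points and the mean ± SD (n = 4) as bars. *Gm1818* overlaps between groups, whereas the *Cnst* values of the abnormal samples (18.7 to 23.4 TPM) lie above the others.

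*Polrmt*, the RNA polymerase itself, was at 11.6, 11.3, 12.0 and 12.1 TPM in the abnormal samples. The normal samples had 11.9, 12.7, 12.6 and 13.8 TPM and the young samples 10.5, 12.6, 12.9 and 13.1 TPM. All 3 groups overlapped, and the change on the log2 scale from normal to abnormal fibers was -0.11 (95% interval -0.31 to 0.09, limma adjusted p = 0.50). With trimmed-mean scaling this change was -0.32 (limma adjusted p = 0.087). Against young fibers the change was -0.06 (interval -0.26 to 0.15) in abnormal and 0.05 (interval -0.15 to 0.26) in normal fibers.

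*Tfam*, the packaging and promoter-bending factor, was at 28.5, 29.2, 26.6 and 24.02 TPM in the abnormal samples and at 29.8, 22.8, 23.4 and 27.0 TPM in the normal samples. The young samples were close together at 29.2, 28.5, 29.8 and 29.1 TPM. The aged samples reached from the young range to below it in both groups. The log2 change was 0.07 between abnormal and normal fibers (interval -0.13 to 0.28, limma adjusted p = 0.65) and -0.18 between normal and young fibers (interval -0.38 to 0.02, limma adjusted p = 0.45).

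*Tfb1m*, the ribosomal RNA methyltransferase, was at 6.61, 9.23, 8.76 and 8.74 TPM in the young samples. The normal samples had 5.79, 4.58, 5.80 and 6.45 TPM and the abnormal samples 4.88, 7.41, 6.59 and 7.29 TPM. The normal samples did not overlap with the young ones, whereas the abnormal samples overlapped with both. The change between normal and young fibers was -0.49 (SE 0.15, interval -0.82 to -0.16, limma adjusted p = 0.16, unadjusted 0.0073), and that between abnormal and young fibers -0.31 (interval -0.64 to 0.02, limma adjusted p = 0.25). *Tfb1m* shares 3107 exonic bases with *Tiam2* on the opposite strand, which was at 1.43 TPM at most.

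Between Fluo-4 normal and young fibers, none of the 10 genes passed the adjusted threshold in limma, beside 1.15% of all genes (4.19% with a filter of 5 TPM). The share of all genes rested on few genes, 166 in all. It fell to 72, 55 and 59 genes without young sample 1, 2 or 3 and to 91, 103 and 59 genes without normal sample 2, 3 or 4. At an unadjusted p under 0.05 there were 2, *Tfb1m* and *Tfb2m*, both lower, beside 12.9% of all genes, and the same 2 did not overlap between the groups, beside 7.99% of all genes. Between Fluo-4 abnormal and young fibers, 0 of 10 passed at the adjusted threshold (8.5% of all genes, and 21.1% with a filter of 5 TPM). At an unadjusted p under 0.05 there were 0 (23%), and 0 were without overlap (16.2%). All genes called numbered 1226 here, and 715, 604, 742 and 788 without young sample 1 or 4 or abnormal sample 2 or 4. In both comparisons 7 of the 10 changes were negative, with a median of -0.15 in normal and -0.11 in abnormal fibers, against -0.02 and 0.07 over all genes. With the filter of 5 TPM the medians over all genes were -0.07 and 0.12. The 2 comparisons share the young samples.

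Of the 2 replication factors, *Polg* was at 7.99, 8.27, 5.97 and 6.04 TPM in the abnormal samples, at 4.96, 6.08, 7.76 and 6.14 TPM in the normal samples and at 9.02, 6.96, 8.93 and 6.83 TPM in the young samples. The samples of each group were spread widely and overlapped with those of both other groups. The log2 change was 0.16 between abnormal and normal fibers (interval -0.18 to 0.50, limma adjusted p = 0.56) and -0.31 between normal and young fibers (interval -0.65 to 0.03, limma adjusted p = 0.44). *Ssbp1*, for the single-strand binding protein, ranged over 38.7 to 58.0 TPM in abnormal, 43.8 to 54.1 TPM in normal and 47.1 to 59.7 TPM in young fibers, and its change between abnormal and normal fibers was 0.02 (interval -0.24 to 0.28).

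The mRNA-binding pair was not at matched levels, *Slirp* being the highest of the 10 genes and *Lrpprc* in the middle. *Lrpprc* was at 19.0, 22.8, 18.5 and 15.4 TPM in the abnormal samples, at 15.4, 22.8, 22.8 and 19.9 TPM in the normal samples and at 22.9, 22.9, 22.9 and 20.7 TPM in the young samples. The aged groups reached lower than the young one but overlapped with it. Its log2 change was -0.09 between abnormal and normal fibers (interval -0.37 to 0.20) and -0.24 between abnormal and young fibers (interval -0.53 to 0.05, limma adjusted p = 0.31). With trimmed-mean scaling the latter was -0.40 (limma adjusted p = 0.024), the only call of a gene other than *Tfb2m* under the settings tried.

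*Slirp* was at 124.5, 101.4, 92.7 and 99.8 TPM in the abnormal samples, at 131.7, 87.8, 86.9 and 94.7 TPM in the normal samples and at 110.3, 84.8, 81.0 and 97.2 TPM in the young samples. Sample 1 was the highest of each group. The change was 0.07 between abnormal and normal fibers (interval -0.23 to 0.37, limma adjusted p = 0.78) and 0.17 between abnormal and young fibers (interval -0.13 to 0.46). *Slirp* shares 3050 exonic bases with *Snw1* on the opposite strand, which was at 33.6 ± 2.1 TPM in abnormal, 30.1 ± 3.4 TPM in normal and 29.4 ± 3.5 TPM in young fibers (SD, n = 4).

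The RNA-degrading pair was at similar low levels. *Pnpt1*, the exoribonuclease, ranged over 7.21 to 9.17 TPM in abnormal, 6.91 to 10.2 TPM in normal and 7.94 to 9.70 TPM in young fibers, with a change between abnormal and normal fibers of -0.06 (interval -0.34 to 0.21). *Supv3l1*, the helicase, ranged over 5.96 to 7.31 TPM, 6.06 to 6.99 TPM and 5.72 to 7.35 TPM in the same order, with a change of 0.03 (interval -0.22 to 0.28). The groups overlapped in both genes.

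The products of this machinery, the RNAs of the 37 mitochondrially-encoded (mt-) genes, differed in summed level between all 3 groups. The mt- genes held 5.82% ± 1.04 of all TPM in abnormal, 9.69% ± 0.97 in normal and 7.77% ± 0.30 in young fibers (SD, n = 4). By sample the shares were 6.92%, 6.49%, 5.14% and 4.75% in the abnormal group, 10.0%, 10.9%, 9.07% and 8.75% in the normal group and 7.75%, 7.35%, 8.01% and 7.97% in the young group, with no overlap between any 2 groups. Each of the 3 differences had p = 0.0286 in the two-sided exact permutation test, the smallest p that 4 against 4 samples can give. With same-numbered abnormal and normal samples taken as pairs, the share was lower in the abnormal sample of all 4 pairs (p = 0.125 in the exact sign-flip test, the smallest p that 4 pairs can give), so the difference does not pass the threshold in the paired form. These are bulk samples, and the values are shares of a fixed sum. Less mitochondrial RNA per fiber, fewer fibers rich in it and more RNA of other genes cannot be told apart in these shares. Near-identical nuclear copies of mt- mRNA genes, such as *Gm29216* for *mt-Co1*, were listed apart and are left out of the mt- shares. They summed to 25279 ± 4274 TPM in abnormal, 41649 ± 3891 TPM in normal and 33266 ± 1357 TPM in young fibers (SD, n = 4). How shared reads were split was not tested. The summed level of the 2 ribosomal RNAs was 5776 ± 634 TPM in abnormal, 8976 ± 827 TPM in normal and 6913 ± 304 TPM in young fibers, and that of *mt-Nd6*, the 1 protein gene of the light strand, 1340 ± 274, 2176 ± 217 and 1715 ± 49 TPM (SD, n = 4). Since the library kit keeps no record of the strand, RNA of the opposite strand cannot be told apart in the *mt-Nd6* values. The 22 transfer RNA genes summed to 172 ± 34 TPM in abnormal fibers (SD, n = 4). They summed to 344 ± 23 TPM in normal and 330 ± 41 TPM in young fibers, and the samples of these groups overlapped.

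A ratio of mRNA to ribosomal RNA compares products of the same strand within a sample, and so does not depend on the scaling of the sample. How evenly the library kit captured mRNA and ribosomal RNA was not tested, so the values are ratios of TPM only. The 12 mRNAs of the heavy strand summed to 8.76 ± 0.68 times the ribosomal RNA in abnormal, 9.54 ± 0.82 times in normal and 9.96 ± 0.63 times in young fibers (SD, n = 4). The nuclear copies are left out of these sums, and the ratio was not computed with them. On the log2 scale the groups did not differ past the threshold in two-sided exact permutation tests (p = 0.23 for abnormal against normal, p = 0.057 for abnormal against young and p = 0.43 for normal against young).

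Divided by the TPM of each of the 10 genes, a ratio that also does not depend on scaling, the summed mt- TPM was lower in abnormal than in normal fibers with no overlap for 9 of 10. The exception was *Tfb1m*. The fold of the group means ran from 0.47 for *Tfb2m* to 0.65 for *Polrmt*. Of 11011 genes for which the ratio could be formed, 65% were lower with no overlap in this comparison. The sum was thus lower against most nuclear genes and not against these 10 alone. All 10 ratios share this sum, which itself did not overlap between the groups, so they are not separate results. The 11011 genes were not matched to the 10 for level. Per TPM of *Tfb2m* the sum was 1565 ± 209 in abnormal, 3344 ± 503 in normal and 2111 ± 204 in young fibers, and per TPM of *Polrmt* 4986 ± 1033, 7631 ± 1050 and 6372 ± 677 (SD, n = 4). Between abnormal and young fibers the ratio was lower with no overlap for 4 of 10 (*Tfam*, *Tfb2m*, *Slirp* and *Supv3l1*), beside 40.4% of genes, with folds of 0.66 to 0.98. Between normal and young fibers it was higher with no overlap for 6 of 10 (*Tfam*, *Tfb1m*, *Tfb2m*, *Lrpprc*, *Polg* and *Ssbp1*), beside 26.5% of genes, with folds of 1.18 to 1.85.

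**Figure D4:**
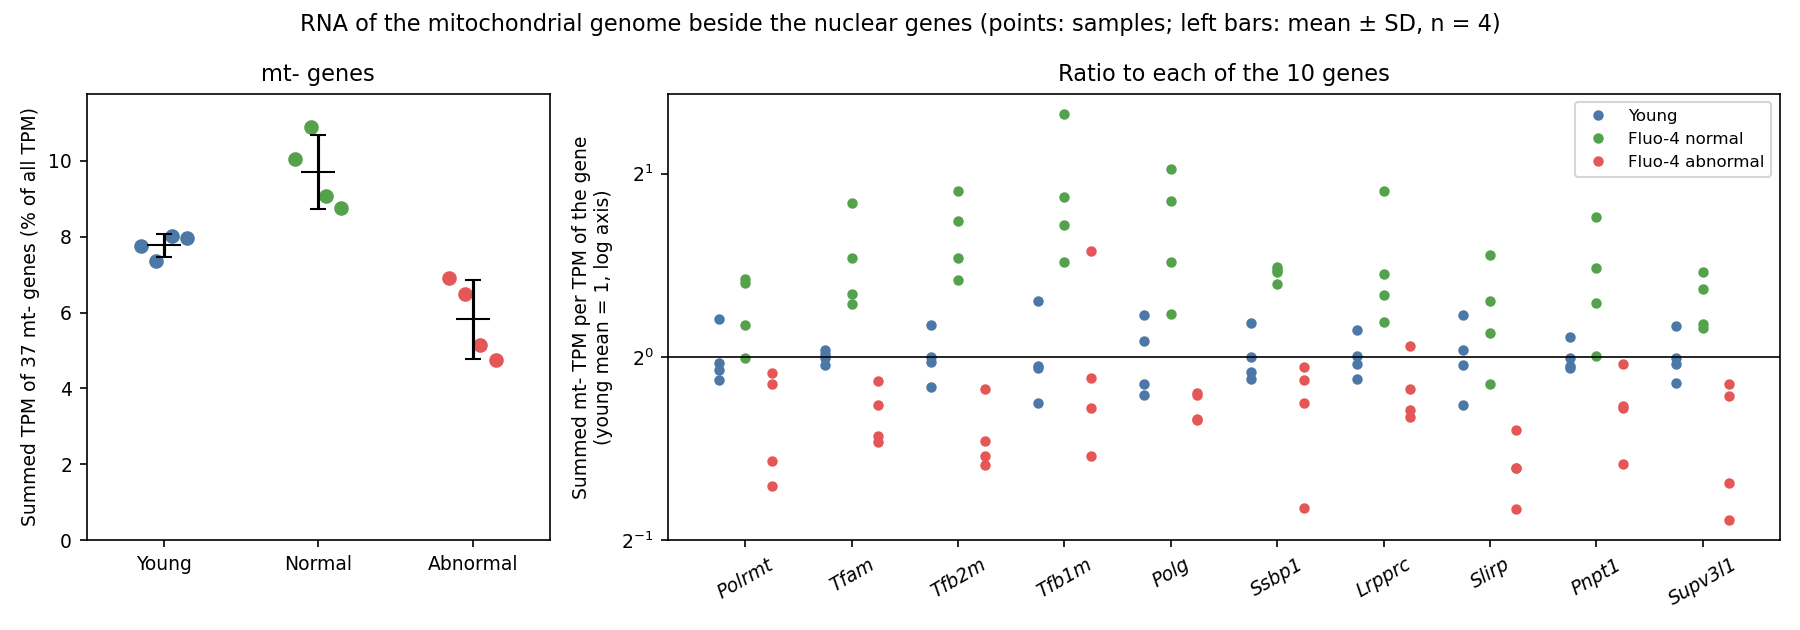
Left, the summed TPM of the 37 mt- genes as % of all TPM (y axis, from 0) in the 3 groups, with samples as points and the mean ± SD (n = 4) as bars. Right, that sum per TPM of each of the 10 genes (x axis) relative to the young mean on a log axis, where the abnormal samples lie below the normal ones for all genes but *Tfb1m*.

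The rest of the pathway was described from 4 lists of nuclear genes for mitochondrial transcription, DNA maintenance, RNA processing and turnover, and RNA modification with ribosome assembly. Between abnormal and normal fibers each list held 1 called gene, beside 9.35% of all genes. With trimmed-mean scaling the lists held 1, 2, 5 and 2 called genes in this order, all of them lower. This is beside 6.11% of all genes called with that scaling, 335 of them higher and 546 lower. Of 7 tested transcription genes the called 1 was *Mrpl12*, a ribosomal protein that also binds the polymerase, which was lower at 86.3, 82.6, 77.1 and 85.8 TPM against 127.7, 120.8, 98.1 and 103.5 TPM (log2 change -0.43, limma adjusted p = 0.0068). Of 15 DNA maintenance genes it was *Slc25a4*, the ADP/ATP carrier of muscle, which was lower at 2372 ± 114 against 3416 ± 97 TPM (SD, n = 4; -0.53, limma adjusted p = 0.00073). Both also fell against young fibers, by 0.39 and 0.42 on the log2 scale (limma adjusted p = 0.011 and 0.0021).

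Of 22 genes of RNA processing and turnover, *Rexo2*, an exonuclease for short RNA fragments, was higher at 118.9 ± 12.9 against 94.2 ± 7.9 TPM (SD, n = 4; log2 change 0.33, limma adjusted p = 0.042). With trimmed-mean scaling it was 0.11 (limma adjusted p = 0.52), and without the mt- genes in the scaling 0.27 (limma adjusted p = 0.10). Of 21 tested genes of RNA modification and ribosome assembly, *Mrm1*, a methyltransferase of the large ribosomal RNA, was lower at 3.00, 2.89, 1.42 and 1.27 TPM against 4.83, 4.34, 2.80 and 5.20 TPM (-0.78, limma adjusted p = 0.047, and 0.093 with the replicate block). The groups of *Mrm1* overlapped, and its levels were low. *Tefm*, the elongation factor that travels with the polymerase, was not called (25.6 against 30.1 TPM, -0.23, limma adjusted p = 0.27).

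The list medians on the log2 scale were 0.00 for transcription, 0.14 for DNA maintenance, 0.03 for RNA processing and turnover and 0.02 for RNA modification and ribosome assembly, against 0.10 over all genes. With trimmed-mean scaling all 4 medians were negative, between -0.19 and -0.08, and the median of all genes was 0.00. Between normal and young fibers 0 genes of any of the 4 lists were called in limma (1.15% of all genes), and 0, 0, 1 and 3 passed at an unadjusted p under 0.05 (12.9% of all genes). Between abnormal and young fibers each list again held 1 called gene, namely *Mrpl12*, *Slc25a4*, *Rexo2* and *Mrm1*, beside 8.5% of all genes. With trimmed-mean scaling the lists held 2, 2, 5 and 1 called genes, all lower, and *Rexo2* was not called (0.21, limma adjusted p = 0.13). Of all genes 7.94% were called with that scaling, 465 higher and 680 lower.

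Among 10 nuclear regulators of mitochondrial genes, *Perm1*, a muscle factor induced by the PGC-1 coactivators, was lower in abnormal fibers at 31.0, 24.03, 22.2 and 18.2 TPM against 42.5, 65.9, 55.4 and 51.3 TPM in normal fibers (log2 change -1.15, limma adjusted p = 0.00099). *Esrra*, for a nuclear receptor that these coactivators bind, was lower than in young fibers (-0.41, limma adjusted p = 0.015) and at -0.22 against normal fibers (limma adjusted p = 0.15). *Nrf1* and *Gabpa*, for factors known to bind promoters of genes such as *Tfam*, *Tfb1m* and *Tfb2m*, were at 8.43 against 7.13 TPM (0.21, limma adjusted p = 0.51) and 7.74 against 5.95 TPM (0.36, limma adjusted p = 0.24) in abnormal against normal fibers. *Ppargc1a*, *Ppargc1b* and *Pprc1*, the coactivators themselves, were at -0.20, -0.10 and 0.48 and were not called (limma adjusted p = 0.53, 0.84 and 0.17).

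**Figure D5:**
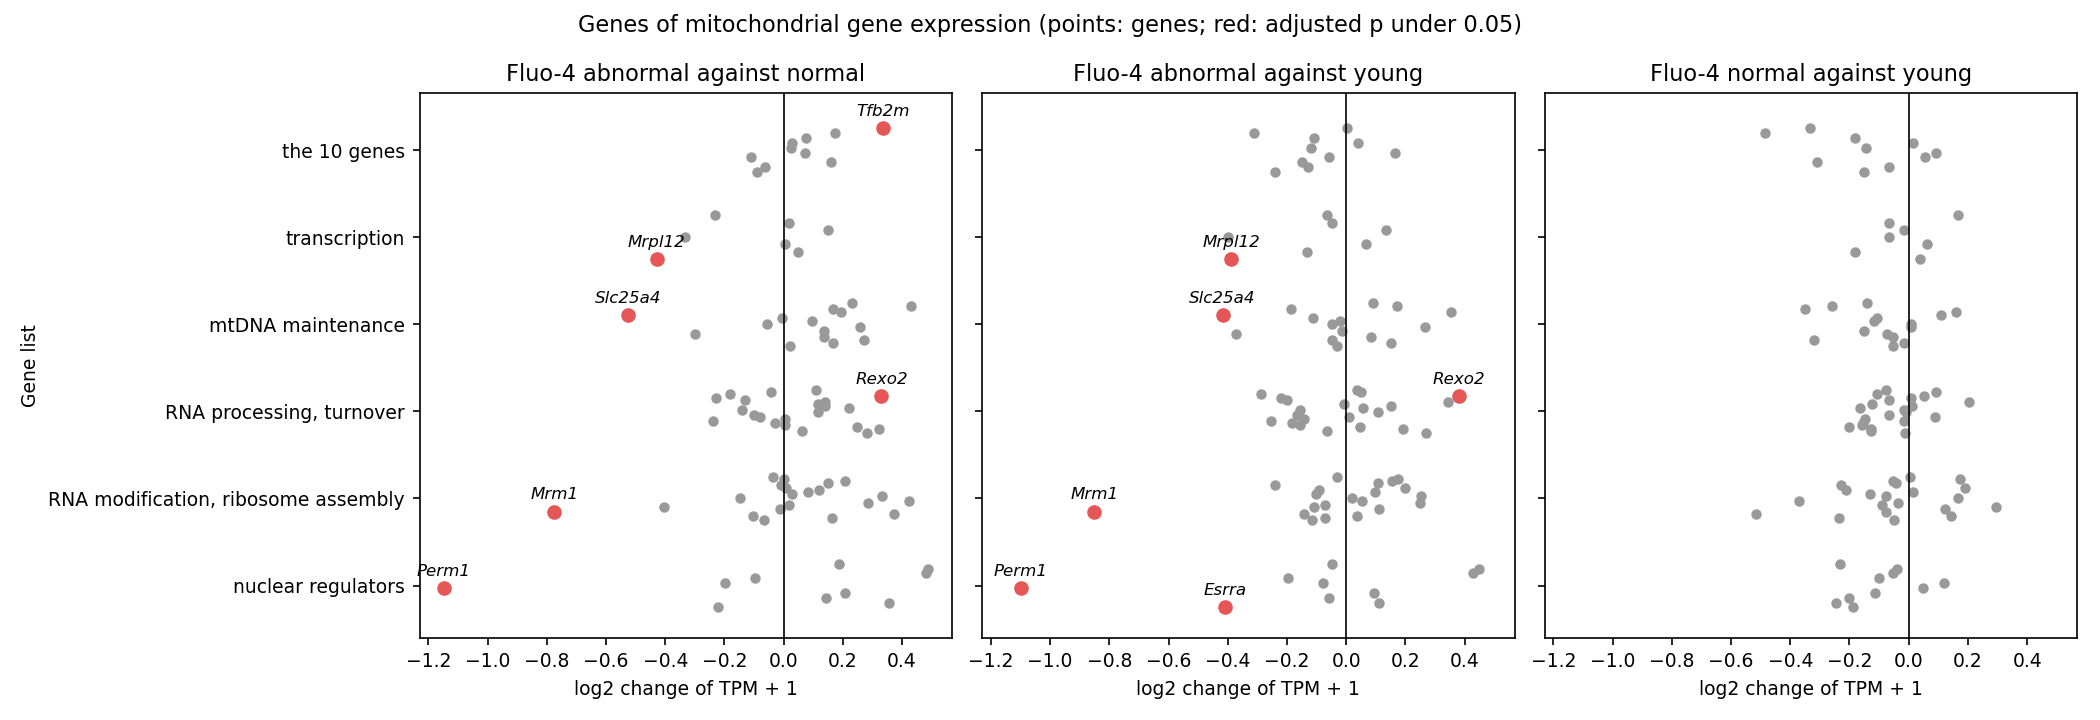
Log2 change of TPM + 1 (x axis) of the genes of each list (y axis; each point is 1 gene) in the 3 comparisons, with called genes in red and named. Between abnormal and normal fibers each of the 4 pathway lists holds 1 called gene, the nuclear regulators hold *Perm1* at -1.15, and between normal and young fibers no gene is called.

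The promoters of the 10 genes, as given by RefSeq for GRCm38.p6 from 250 bases before to 50 after the start, were searched on both strands for the core letters of 3 motifs. The core of nuclear respiratory factor 1, GCGCNTGCG, was found in 2 of 10 (*Polrmt* and *Tfb2m*) and in 6.31% of all 32851 windows. The ETS core bound by GABP, CCGGAAG, was found in 5 of 10 (*Polrmt*, *Tfam*, *Polg*, *Ssbp1* and *Slirp*) and in 8.86% of windows. The YY1 core, AAGATGGC, was found in 1 of 10 (*Slirp*) and in 2.75% of windows. The windows of *Tfb1m*, *Lrpprc*, *Pnpt1* and *Supv3l1* held none of these letters. *Polrmt*, *Tfb2m* and *Tfam* are shown from 70 bases before to 30 after the start, since the proteins of these 3 genes act together at the mitochondrial promoter. Each stretch was placed on GRCm39 by exact match (minus strand), at chr10:79582386-79582485, chr1:179373812-179373911 and chr10:71073845-71073944. Capitals mark the motif letters, and the 2 matches of the first core in *Polrmt* overlap each other. A match describes the letters and is not evidence of binding.
Polrmt: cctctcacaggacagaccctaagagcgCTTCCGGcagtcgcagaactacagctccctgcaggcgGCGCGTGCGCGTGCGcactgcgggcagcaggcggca
Tfb2m: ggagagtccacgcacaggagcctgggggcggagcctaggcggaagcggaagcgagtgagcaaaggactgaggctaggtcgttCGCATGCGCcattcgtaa
Tfam: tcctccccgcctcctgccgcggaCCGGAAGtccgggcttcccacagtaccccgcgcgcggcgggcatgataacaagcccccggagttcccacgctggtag

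For each gene, the genes with the most similar pattern were sought by Pearson's r of log2(TPM + 1) over the 12 samples, among 5984 genes with a mean of at least 5 TPM. The samples are 3 groups, and a high r among so many candidates is a description only. *Lrpprc* was most like *Opa1*, a gene for fusion of the inner mitochondrial membrane (r = 0.97), and *Crat*, for carnitine acetyltransferase (0.93). *Tfb2m* was most like *Rasgrp3* (0.91) and *Leo1* (0.90), *Tfb1m* like *Snrnp35* (0.91) and *Psph* (0.87), and *Polg* like *Mphosph8* (0.93) and *Capza1* (0.85). *Slirp* was most like the ribosomal protein genes *Rpl39* (0.87) and *Rps15a* (0.84), and *Tfam* like *Mtx1* (0.85) and *Cav3* (0.81). *Pnpt1* was most like *Suox* and *Oxld1* (both 0.85), *Ssbp1* like *Cd47* (0.83) and *Mrps26* (0.82), *Polrmt* like *Lmf1* (0.81) and *Phlda3* (0.78), and *Supv3l1* like *Dap3* (0.74) and *Syne2* (0.73). Among the 10 genes themselves the highest r was 0.70, between *Lrpprc* and *Polg*, and that of *Tfb2m* was 0.60 with *Polg* and 0.58 with *Tfam*. Between the partners it was -0.58 for *Lrpprc* with *Slirp* and 0.02 for *Pnpt1* with *Supv3l1*.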

How the data were processed

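Per the labels and the methods of the study, libraries were made from 10 ng of total RNA with SMART-Seq v4, which keeps no strand, and the authors aligned reads to GRCm39 with DRAGEN (4.3) and deposited gene values in TPM, 1 file per sample. Which annotation release was used is not given in the sources used here, and read counts and depth were not used, so no counting interval was computed. The files held 55487 entries with 55367 symbols, and the lines of 114 repeated symbols were added up. The 3 groups were modelled on log2(TPM + 1) with limma 3.58.1 (R 4.3.3, variance trend), over genes reaching a group mean of 0.02 TPM, and p-values were adjusted by Benjamini-Hochberg. Groups came from the sample titles. Values per sample were compared by exact permutation over 70 arrangements. The fit was run on simulated data with independent samples and with changes larger than that of *Tfb2m*. This run does not bear on paired samples, on scaling or on changes as small as that of *Tfb2m*. Near-identical copies were sought with BLAST 2.17.0 (at least 95% identity, 100 bases and 50% of a coding transcript), and 9 of the 10 genes had none.

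The labels number the replicates alike in the aged groups. After the group means were subtracted, abnormal and normal samples with the same number had an r of 0.44, 0.38, 0.43 and 0.30 over 5994 genes, and those with different numbers -0.36 to 0.23, so the numbers were taken as pairs for the replicate block. The pairing comes from these values and not from the labels. Alternatives were trimmed-mean factors (trims of 30% and 5%), scaling without mt- genes, a pseudocount of 0.1, no filter or one of 5 TPM, only the groups compared, the *Myh4* share as covariate, the replicate block and leaving out each sample. Added after seeing the data were the block with trimmed-mean factors, *Tfb2m* summed with *Gm1818*, and mt- genes counted with their nuclear copies. Named were the 10 genes, called genes of the lists (up to 4 each), 7 regulators and the 2 genes most like each of the 10. *Tefm* and the genes overlapping or copying *Tfb2m*, *Slirp* and *Tfb1m* were added after their values were seen. The 10 genes and the lists were chosen with earlier results of these data known.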

Additional observations from a re-analysis of the deposited data

Results flagged for a closer look

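One value stood far from its group. *Lrpprc* was at 20.7 TPM in young sample 4, whereas the other 3 young samples lay between 22.85 and 22.92 TPM, so the gap to the nearest sample made up 0.972 of the range of the group, past Dixon's 95% limit for 4 samples. Over the 10 genes and the summed measures, 36 groups of 4 samples were examined and this was the only one past that limit, where chance flags about 1 in 20. The range of *Lrpprc* over the other groups, 15.4 to 22.8 TPM, was wider than this gap.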

How the results depend on the processing

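Between abnormal and normal fibers, the number of called genes among the 10 was 1 with a pseudocount of 0.1, no filter or a filter of 5 TPM, and it was 0 with trimmed-mean factors, scaling without mt- genes, only the groups compared, the *Myh4* share, the replicate block (also with the *Myh4* share, where 0 of all genes were called, or with trimmed-mean factors) and *Tfb2m* summed with *Gm1818*. Leaving out single samples gave 0 to 1. The change of *Tfb2m* ran from 0.12 to 0.39 over 23 alternatives. The filters, only the groups compared, the replicate block and leaving out young samples cannot alter this estimate, so their sign is no support for its direction. Under the replicate block it was 0.34 (limma adjusted p = 0.10), and of all genes 1150 were called in place of 1349. With trimmed-mean factors, 1 of the 10 changes was positive in place of 7, and of all genes 335 were called higher and 546 lower in place of 1062 and 287. Between abnormal and young fibers the number was 1 with trimmed-mean factors (*Lrpprc*, beside 7.94% of all genes) and 0 otherwise. Between normal and young fibers it was 0 throughout. The differences of the mt- share kept their direction and p with the nuclear copies (-5.51, -2.75 and 2.76 percentage points). Causes of the lost calls were not tested. Depth is unknown, and 4 samples per group set the precision.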
